A study of Mus musculus with 12 samples.

Results

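The RNA levels of 9 transcription factor genes that guide the lineages of innate lymphoid cells (ILCs) were examined in ILC3s (group 3 ILCs) sorted from the mouse small intestine. The genes were Id2, Id3, Rora, Ahr, Gata3, Tbx21, Tcf7, Tox and Nfil3. They were taken by name, as regulators known from ILC biology, and all 9 were found among the 23284 genes of the expression table. The cells came from HR-1 mice, all 18 weeks old, which had been nursed either on milk rich in palmitic acid (PA) or on milk of mothers on the normal diet (ND). From each diet, the intraepithelial (IEL) layer and the lamina propria (LP) gave 3 libraries each, so PA IEL, ND IEL, PA LP and ND LP are 4 groups of 3. The labels do not say whether the 3 libraries of a group came from separate mice, or whether same-numbered IEL and LP libraries shared a mouse. The p-values measure only the spread between the libraries of a group. Levels are given as FPKM, fragments per kilobase of transcript and per 1000000 mapped fragments, which allows a comparison between genes of different length.

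ILCs are lymphocytes without rearranged antigen receptors, and their groups resemble helper T cell subsets in the factors and cytokines they use. Id2 blocks E protein transcription factors and with Nfil3, Tcf7 and Tox takes part in the step from lymphoid progenitors to ILCs. Gata3 and Rora are best known from ILC2s and Tbx21, which encodes T-bet, from ILC1s and NK cells, while Ahr, the aryl hydrocarbon receptor that senses dietary and microbial ligands, maintains ILC3s of the gut.

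The libraries differed widely in how many genes they held, and this was seen in the markers of the sorted cells as well. Estimated reads per library ran from 8.79 to 14.56 M, and 3 reads were taken as a floor below which a value was not counted as detected. PA IEL replicate 2 had the most reads, but 60.8% of the 12502 tested genes were under the floor there, followed by PA LP replicate 2 with 51.3% and ND IEL replicate 2 with 32.6%. The other 9 libraries had 7.67% to 28.5% under the floor. Of 16 genes typical of ILC3s and of the sort gate, 14, 3 and 13 were detected in PA IEL replicates 1, 2 and 3, and 15, 3 and 15 in ND IEL. In LP, 8, 3 and 14 were detected in PA and 9, 16 and 14 in ND. Their summed FPKM was 1951, 0.626 and 838 in PA IEL, 298, 63.4 and 636 in ND IEL, 201, 4.46 and 376 in PA LP, against 632, 6760 and 691 in ND LP. Il22 was the most abundant gene by its mean over the 12 libraries, with 4339 FPKM in ND LP replicate 2 and at most 0.416 in PA LP. Thy1, whose protein the sort selected, was listed at 0 in 5 of the 12 libraries, namely in replicate 2 of PA IEL, ND IEL and PA LP and in replicate 1 of PA LP and ND LP. The data therefore went against the ILC3 label in PA IEL replicate 2, ND IEL replicate 2 and PA LP replicate 2, and the values below are given for every library with this in view. The 11 genes of the myeloid list summed to 846, 3708 and 862 FPKM in PA IEL, 3182, 2741 and 313 in ND IEL, 1812, 3649 and 1065 in PA LP and, in ND LP, 11282, 830 and 982. Their sum was thus high in these 3 libraries, as it was in ND IEL replicate 1 and ND LP replicate 1. The sort took lineage-negative cells, and the lineage markers that the paper lists include CD11b and Gr-1. The part of myeloid RNA in the values of the factors was not tested.

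The 9 factors spanned 2 orders of abundance, from genes near the top of the table to genes seen in few libraries. Averaged over the 12 libraries, Id3 stood at 432 FPKM and Id2 at 361, each above 97% of the tested genes. Rora (49.2 FPKM), Nfil3 (48.2) and Tcf7 (32.3) formed a middle range, and Ahr (9.90), Gata3 (6.52), Tox (6.50) and Tbx21 (3.63) were low. The ranges of neighbours in this order overlapped between libraries for every pair. Only Id2 was detected in all 12 libraries, as were 22.7% of all tested genes. Id3 and Nfil3 were detected in 10, Ahr in 9, Rora, Gata3 and Tcf7 in 8, Tox in 7 and Tbx21 in 3.

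Most values were either well covered or missing. Of the 108 values, 33 were under 3 reads, 74 rested on at least 100 reads and only 1 lay between. Among all tested genes, 22.7% of values were under 3 reads, 11.9% lay between and 65.4% had at least 100. A library's number of detected factors went with its detection of all genes. PA IEL replicate 2 held 1 factor, PA LP replicate 2 held 2, and ND IEL replicate 2 and PA LP replicate 1 held 4 each, whereas the other 8 libraries held 7 to 9. Because cDNA was amplified by PCR without molecular identifiers, the floor covers counting error only, and a value of 0 is no proof of missing RNA.

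**Figure D1:**
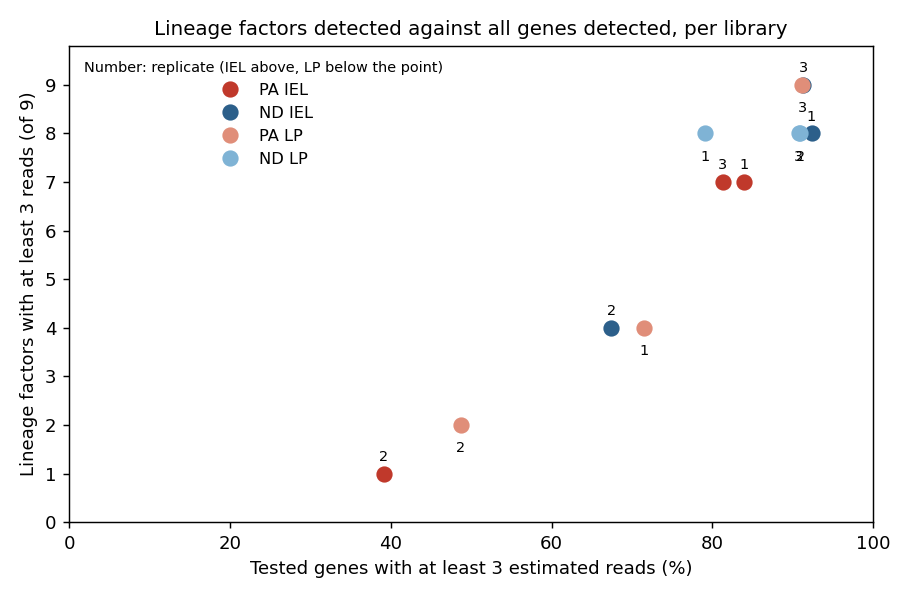
Number of the 9 lineage factors with at least 3 estimated reads (vertical axis) against the percentage of tested genes with at least 3 estimated reads (horizontal axis), with 1 point per library, coloured by group and numbered by replicate. The library with 39.2% of the genes detected held 1 factor and the libraries with 91.2% and 91.3% held all 9.

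The comparison of PA with ND asked whether the milk fat of the mother is reflected in these factors in each layer. Here and below, counts of higher and lower genes refer to means of log2(FPKM + 1), which libraries near 0 lower strongly. In IEL, 4 of the 9 factors had a higher mean in PA and 5 a lower mean, with a median difference of -0.26, close to the -0.30 of all tested genes, of which 38.0% were higher. In LP, 1 factor was higher and 8 were lower, with a median of -1.77 against -0.36 for all genes, of which 37.4% were higher. By mean FPKM, Id3 was also higher in PA in LP, at 744 against 500.2, since its lower log2 mean rested on PA LP replicate 2. Setting Tbx21 to the bound that the floor allows could not move either median. Tbx21 already lay below the median in IEL and above it in LP, and the bound lies further out. At an adjusted p under 0.05, limma called 0 of the 9 factors in IEL beside 0 of all 12502 genes (0%), with 2 factors and 447 genes at an unadjusted p under 0.05. It called 0 factors in LP beside 0% of genes, with 3 factors and 4.70% of genes at an unadjusted p under 0.05. For the diet effect in LP minus that in IEL it again called 0 factors beside 0% of genes, with 3 factors and 2.34% of genes at an unadjusted p under 0.05. Voom on estimated reads and fits with sample quality weights also called 0 factors for diet. All 9 factors carried a standard error above 0.5 in each layer.

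The positions of the libraries gave a similar picture. In IEL, 1 factor had every PA library above every ND library, as had 2.97% of tested genes, and 2 had every PA library below every ND library, as had 5.22%. In LP, 0 factors lay wholly above, against 2.97% of genes, and 1 lay wholly below, against 6.60%. With so few factors, these counts do not set the group apart from other genes. An exact permutation test of 3 against 3 libraries cannot go below p = 0.1, the value that such a separation gives.

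Without replicate 2 of PA IEL and PA LP, the libraries with the fewest genes, 6 of the 9 factors were higher in IEL (median 0.72) and 3 in LP (median -1.26). Leaving out ND IEL replicate 1 or 3 also turned the median of the factors in IEL, to 0.05 or 0.54. Leaving out ND IEL replicate 2 instead gave 3 higher and a median of -1.36. Without replicate 2 of all 3 groups, a fit chosen after seeing the data, 4 were higher in IEL and the median was -0.08. Without both PA libraries, all genes had a median of 0.00 in IEL and -0.05 in LP. The lower level in LP was thus carried by Id2, Rora, Ahr, Tcf7 and Tox in both settings, while Nfil3 stood at -0.01 without these libraries. Limma called 0 factors and 0 genes in either layer without them. At an unadjusted p under 0.05 there were 2 factors in each layer, beside 430 of all 12502 genes in IEL and 881 in LP. Scaling the libraries on 24 genes common to leukocytes moved the median of all genes from -0.30 to -0.50 in IEL and from -0.36 to -0.22 in LP, and it left 4 and 1 factors higher.

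IEL and LP were also compared within each diet, to see how the factors differ between the layers. In ND, 2 factors were higher in IEL and 7 lower, with a median of -1.45 against -0.09 for all genes, and the median was -0.80 without ND IEL replicate 2. Id3, counted as higher, had a lower mean FPKM in IEL, at 330.6 against 500.2. In PA, 4 factors were higher in IEL and 5 lower, with a median of -0.29 against -0.03. This turned with single libraries, to 7 higher (median 0.99) without PA IEL replicate 2, 8 higher (0.37) without PA LP replicate 3 and 5 higher (0.29) without PA LP replicate 1, and the median was -1.52 without PA LP replicate 2. Leaving out replicate 2 of both PA groups gave 5 higher and a median of 0.37. Limma called 0 of the 9 factors in both diets, beside 4 genes (0.0320% of those tested) in ND and 18 (0.144%) in PA, with 1 factor at an unadjusted p under 0.05 in each diet, as had 6.63% and 10.6% of genes. Leaving out single libraries moved the counts of called genes from 0 to 65 in ND and from 1 to 289 in PA, both highest without PA LP replicate 2. With sample quality weights, 2 factors were called in ND, Id2 and Tbx21, beside 6.34% of all genes, and 0 in PA, beside 1.07%. In ND, 0 factors had every IEL library above every LP library, against 9.95% of genes, and 2 had every IEL library below, against 9.34%. In PA, 1 factor had every IEL library above, against 4.06% of genes, and 0 had every IEL library below, against 4.51%. The diet and layer comparisons share libraries, so they are given side by side and not as separate evidence.

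Most markers of epithelial cells had higher means in IEL, with 6 of them in ND and 9 in PA at an unadjusted p under 0.05 from limma. The 15 genes of this list summed to 9275, 4155 and 53217 FPKM in PA IEL, 25467, 84182 and 29178 in ND IEL, 1867, 2400 and 399 in PA LP, against 3731, 5446 and 6747 in ND LP, with Fabp2 as the most abundant gene. None was at 0 in all libraries of a group, and 14 were higher in IEL in ND and 12 in PA. Apoa1 was called in both diets, with a log2 difference in ND of 7.43 (adjusted p = 0.0306 from limma) and 7.55 in PA (adjusted p = 0.0133 from limma). The call in ND was lost without a filter, with voom and with a replicate block, where 0 genes were called. It was also lost without replicate 2 or 3 of ND IEL or of ND LP. Their part in the layer differences of the factors was not tested. In these bulk libraries, fewer cells of a type and less RNA per cell cannot be told apart.

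**Figure D2:**
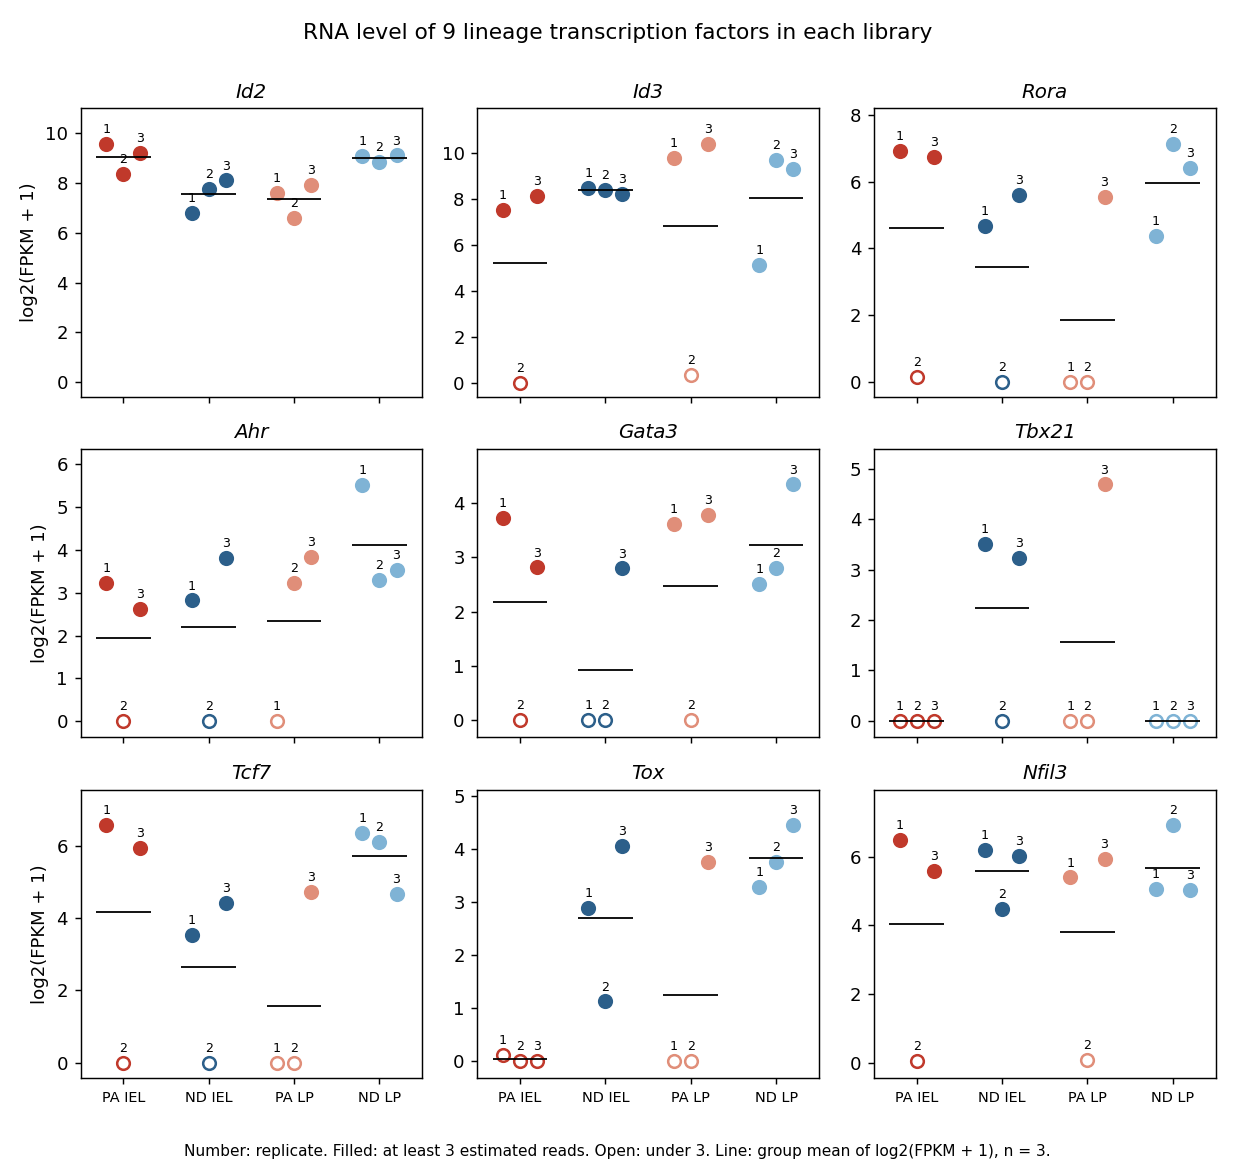
Level of each factor in every library as log2(FPKM + 1), by group, with the replicate number at each point, open points for values under 3 estimated reads and a line at the group mean (n = 3). Only Id2 has no open point, and Tbx21 has filled points in 3 libraries.

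Id2 and Id3 are inhibitors of DNA binding, small proteins that pair with E proteins and keep them off DNA. Id2 (chromosome 12, 25093799 to 25097140, minus strand, GENCODE on GRCm38) was read at 750, 326 and 586 FPKM in PA IEL, against 110, 217 and 273 in ND IEL. In LP it was 190, 95.2 and 240 in PA and 539, 455 and 546 in ND. The group means fell in the order PA IEL, ND LP, ND IEL and PA LP, in which PA IEL overlapped with ND LP and ND IEL with PA LP, and each other pair of groups was fully apart. The layers thus took opposite orders in the diets. IEL was below LP in ND, by -1.45 on the log2 scale (adjusted p = 0.467 from limma), and above LP in PA, by 1.68 (adjusted p = 0.310 from limma), each with a standard error of 0.51. Without the sparse replicate 2 of PA IEL and PA LP, the layer difference in PA was 1.63 and the diet differences were 1.82 in IEL and -1.26 in LP. Id2 was the only factor with an unadjusted p under 0.05 in all 5 comparisons, and none of them was called. With leukocyte scaling 1 of the 5 kept such a p and with upper-quartile scaling 3. With sample quality weights, an alternative chosen after seeing the data, Id2 in IEL minus LP in ND was -1.48 with an adjusted p of 0.0229 from limma, where the adjusted p ranged from 0.0229 to 1 over the alternatives.

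Id3 (chromosome 4, 136143497 to 136145755, plus strand) did not share this pattern. In IEL it was listed at 182, 0 and 280 FPKM in PA and at 358, 337 and 297 in ND. The LP values were 893, 0.245 and 1339 in PA and 33.6, 836 and 631 in ND. Every PA IEL library lay below every ND IEL library (p = 0.1 by exact permutation), whereas in LP the diets overlapped. The log2 difference in IEL was -3.15 (standard error 2.29) and it shrank to -0.54 without replicate 2 of PA IEL and PA LP, so most of it came from a single library at 0. In LP the difference of -1.21 turned to 2.05 without these libraries. Id3 was the most abundant of the 9 factors in replicates 1 and 3 of PA LP, replicates 2 and 3 of ND LP and all 3 ND IEL libraries, and in those LP libraries it was above every IEL library.

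Markers of stromal and endothelial cells were high in the same LP libraries. The 9 genes of this list summed to 2493, 10.8 and 1244 FPKM in PA LP, against 92.9, 634 and 2193 in ND LP, but to 2.48 to 28.9 in the IEL libraries. Dcn was the most abundant gene by its mean over the 12 libraries, with 1973 FPKM in PA LP replicate 1 and at most 0.149 in the IEL libraries. PA LP replicate 2 and ND LP replicate 1, the LP libraries with the lowest Id3, also had the lowest sums. The sort took lineage-negative cells with Thy1.2, CD25 and Nrp1. The part of stromal and endothelial RNA in the level of Id3 was not tested. Id1, a further inhibitor of the family, was 121, 0 and 209 FPKM in PA IEL, 285, 44.5 and 188 in ND IEL, 616, 24.1 and 573 in PA LP, against 28.0, 644 and 494 in ND LP. It was thus low in the same LP libraries as Id3.

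The E proteins, the partners of Id2 and Id3, were each below Id2 in every library. Tcf3, the most abundant, was 59.3, 269 and 36.4 FPKM in PA IEL, against 27.4, 26.4 and 24.9 in ND IEL. LP libraries had 34.6, 67.8 and 43.9 in PA and 72.8, 61.1 and 44.7 in ND. Tcf3 was detected in all 12 libraries, Tcf4 in 11 and Tcf12 in 9. Every PA IEL library exceeded every ND IEL library for Tcf3, with a log2 difference of 1.64 (standard error 0.84, adjusted p = 0.947 from limma), which was 0.80 without PA IEL replicate 2. Limma called 0 of the 3 E protein genes in any of the 5 comparisons.

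Rora and Tcf7 were detected in the same 8 libraries, absent from replicate 2 of PA IEL, ND IEL and PA LP and from PA LP replicate 1. Besides this pair, 160 tested genes (1.28%) had this set of libraries. Rora encodes the nuclear receptor RORα (chromosome 9, 68653786 to 69388246, plus strand). It was listed at 121, 0.101 and 106 FPKM in PA IEL, 24.6, 0 and 48.1 in ND IEL, 0, 0 and 46.2 in PA LP, against 19.9, 140 and 84.8 in ND LP. Where it was detected in IEL, both PA libraries were above both ND libraries. In LP, the single PA library with Rora lay within the range of ND. The log2 difference was 1.17 in IEL (standard error 1.98) and -4.13 in LP (standard error 1.98), and -5.30 between the layers (standard error 2.80, adjusted p = 1 from limma). Without replicate 2 of PA IEL and PA LP these were 3.41, -3.20 and -6.61. In IEL the sign depended on ND IEL replicate 2, without which the difference was -0.54.

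Tcf7, which encodes the HMG-box factor TCF-1, lies on the minus strand of chromosome 11 from 52252371 to 52283014. It was listed at 94.8, 0 and 61.4 FPKM in PA IEL, against 10.6, 0 and 20.5 in ND IEL. In LP it was 0, 0 and 25.6 in PA and 81.4, 68.0 and 24.8 in ND. The detected PA IEL libraries were above all ND IEL libraries, and every ND IEL library was below every ND LP library (p = 0.1 by exact permutation). The log2 difference of PA from ND was 1.53 in IEL (standard error 1.79) and -4.14 in LP (standard error 1.79). With single libraries left out, it ran from 0.2 to 3.62 in IEL and from -5.72 to -3.35 in LP. The difference between the layers was -5.67, with a standard error of 2.54 and an adjusted p of 1 from limma, and -6.97 without replicate 2 of PA IEL and PA LP. In PA LP the low mean rested on replicates 1 and 2, at 0, while replicate 3 lay just above the lowest ND library.

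Genes typical of ILC3s matched this pair in part. Of the 16, 3 (Il23r, Ccr6 and Cxcr6) were detected in exactly the 8 libraries with Rora and Tcf7, and over the list 7 to 12 of the 12 libraries were alike. The T cell gene Zap70 had the same 8 libraries, and these genes are named for the match, after their values were seen. Of the 16 genes of the ILC3 list, 12 were higher in PA in IEL, with a median log2 difference of 0.79, and 1 was higher in LP, with a median of -1.96. Between the layers, 1 of the 16 was higher in IEL in ND (median -1.82) and 11 in PA (median 0.92). Limma called 0 of them. In LP, 5 were lower in PA at an unadjusted p under 0.05. Il22 had the highest mean of the list over the 12 libraries. It was 565, 0.248 and 104 FPKM in PA IEL, 81.5, 0.177 and 144 in ND IEL, 0.089, 0.311 and 0.416 in PA LP, against 0.164, 4339 and 198 in ND LP. Whether Rora and Tcf7 differed beyond the yield of ILC3 RNA in each library was not tested.

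Ahr (chromosome 12, 35497974 to 35535038, minus strand) was low in most libraries and highest in ND LP replicate 1. In IEL it was listed at 8.41, 0 and 5.18 FPKM in PA and at 6.08, 0 and 13.0 in ND. The LP libraries read 0, 8.36 and 13.2 in PA and 45.2, 8.82 and 10.6 in ND. Ahr was one of 2 factors detected in PA LP replicate 2, together with Id2. The diets overlapped in both layers, with log2 differences of -0.26 in IEL (standard error 1.44) and -1.77 in LP (standard error 1.44). In IEL the sign depended on single libraries, since the difference was 0.72 without PA IEL replicate 2, and leaving out replicate 3 or 1 of ND IEL gave 0.54 or 0.05. The LP difference kept its sign and ran from -2.51 to -0.59 with single libraries left out.

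Genes that act with the receptor or respond to it were set beside Ahr. Its partner Arnt averaged 5.75 FPKM. Of the target genes, Tiparp averaged 75.2 FPKM, Nqo1 54.8, Cyp1b1 14.4, Cyp1a1 4.76 and the repressor Ahrr 0.767. Tiparp was highest in PA LP replicate 1, at 329 FPKM, a library in which Ahr was listed at 0. By means of log2(FPKM + 1), 6 of the 7 genes were lower in PA in IEL and 4 in LP. Tiparp, among these in LP, had the higher mean FPKM in PA there, and limma called 0 of the 7.

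Nfil3, a basic leucine zipper factor of early ILC progenitors that also takes part in the circadian clock, lies on chromosome 13 from 52967209 to 52981073 on the minus strand. It was listed at 88.5, 0.0408 and 46.8 FPKM in PA IEL, against 72.6, 21.4 and 64.4 in ND IEL. LP values were 41.1, 0.0511 and 60.1 in PA and 32.4, 120 and 32.0 in ND. Apart from replicate 2 of PA, the 4 groups occupied the same range. The log2 differences of -1.53 in IEL and -1.87 in LP (standard error 1.66 each) became 0.46 and -0.01 without replicate 2 of PA IEL and PA LP, with a standard error of 0.73. Between the layers, Nfil3 differed by -0.10 in ND and 0.24 in PA. Both signs turned with single libraries left out, over ranges from -0.42 to 0.52 in ND and from -1.62 to 2.23 in PA.

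Clock genes were also set beside Nfil3. Of the 10 genes, 3 were higher in PA in IEL and 3 in LP, and 8 were higher in IEL than in LP in each diet. Nr1d1, the most abundant, was 71.4, 0.0600 and 171 FPKM in PA IEL, against 68.4, 275 and 62.2 in ND IEL, against 13.7, 0.0750 and 55.2 in PA LP, against 0.0300, 29.5 and 6.01 in ND LP. Limma called 0 of the clock genes in any comparison.

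Tox (chromosome 4, 6686353 to 6991557, minus strand), an HMG-box factor, was detected in every ND IEL library and in no PA IEL library. It was listed at 0.0773, 0 and 0 FPKM in PA IEL, all under the floor, and at 6.43, 1.18 and 15.6 in ND IEL, all above it. In LP it was 0, 0 and 12.5 in PA and 8.72, 12.6 and 20.9 in ND. PA LP replicate 3 was thus the only PA library of either layer with Tox, whereas all 6 ND libraries held it. Besides Tox, 13 tested genes (0.104%) had this set of libraries. PA LP replicates 1 and 2 and PA IEL replicate 2 had 28.5%, 51.3% and 60.8% of tested genes under the floor. The 2 reads of PA IEL put the PA mean at 0.333% of the ND mean (95% Poisson interval 0.0403% to 1.20%, for counting error only). PA IEL replicates 1 and 3, where Tox was under the floor, had 7 other factors each, with 16.1% and 18.7% of tested genes under the floor.

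The log2 difference for Tox in IEL was -2.65 with a standard error of 1.20 (adjusted p = 0.947 from limma). In LP the value was -2.58 (adjusted p = 0.979 from limma), and both had an unadjusted p under 0.05. They depend on the pseudocount where values are near 0. Between the layers the diet effect differed by 0.07 (standard error 1.70), a sign that turned without ND IEL replicate 1 or 3, PA LP replicate 3 or ND LP replicate 1, to between -1.18 and -0.03. Without replicate 2 of PA IEL and PA LP they were -2.64 and -1.95. Tox2, a related gene, showed no such order and was 46.6, 0 and 0.0540 FPKM in PA IEL, against 2.19, 0.0530 and 10.8 in ND IEL. It was named after its values were seen.

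Genes of T cells matched the libraries with Tox to varying degrees, with 7 to 11 of the 12 libraries alike over the 12 genes of the list. Cd3d and Cd6, the closest, were detected in 6 of the 7 libraries with Tox and in no other library, and Cd3e was listed at 0 in all 3 PA IEL libraries. These 3 genes are named after their values were seen. Of the regulatory T cell list, Foxp3, also named after its values were seen, matched as closely, in 6 of the 7 libraries with Tox and in no other. Over that list 6 to 11 of the 12 libraries were alike. Its 4 tested genes had a median of -1.66 in IEL, with 0 higher in PA. Cd4 was detected in 4 libraries without Tox, and Cd8b1 stood at 129 FPKM in PA IEL replicate 1, where Tox was under the floor. Of the 12 genes of the T cell list, 5, 1 and 6 were detected in PA IEL, 11, 1 and 12 in ND IEL, 4, 1 and 11 in PA LP, against 8, 11 and 10 in ND LP. Their summed FPKM was 214, 26.2 and 104 in PA IEL, 273, 2.05 and 569 in ND IEL, 107, 56.0 and 349 in PA LP, against 171, 456 and 207 in ND LP, with Lat as the most abundant gene. Of the 11 tested, 2 were higher in PA in IEL (median -1.87) and 2 in LP (median -1.84), and limma called 0. The sort took lineage-negative cells, and its sources differ on whether CD4 or CD45 was a positive marker. In ND IEL replicate 2, Tox was at 1.18 FPKM, on 40 reads, Cd4 was at 1.89 FPKM, and Cd3e, Cd3d and Cd6 were at 0. The part of T cell RNA in the level of Tox was not tested.

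Gata3 and Tbx21 mark the neighbouring ILC groups. Gata3 (chromosome 2, 9857078 to 9890034, minus strand) was listed at 12.2, 0 and 6.04 FPKM in PA IEL, against 0, 0 and 5.94 in ND IEL. In LP it was 11.3, 0 and 12.7 in PA and 4.70, 6.01 and 19.3 in ND. Both detected PA IEL libraries exceeded the single ND IEL library with Gata3, and in LP the diets overlapped. The log2 difference was 1.25 in IEL (standard error 1.39) and -0.75 in LP (standard error 1.39), and 2.34 and 0.48 without replicate 2 of PA IEL and PA LP, so the sign in LP turned. With single libraries left out, the IEL difference ran from 0.48 to 2.34. Exons of a same-strand transcript, 9230102O04Rik, overlap those of Gata3 in the annotation, and since the library kit does not mark strand, reads of the opposite-strand Gm13256 cannot be told apart from it either. The same holds for antisense genes at Rora, Ahr and Tox.

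ILC2 genes were set beside Gata3. Of the 8 genes of that list, 4 were detected only in libraries with Gata3, and over the list 4 to 9 of the 12 libraries were alike in detection. Areg was the most abundant, and it was detected in 7 of the 8 libraries with Gata3 and in 3 others. Il13 and Il5, named after their values were seen, were detected in 2 and 3 libraries. The summed FPKM of the list was 27.1, 103 and 494 in PA IEL, 129, 15.2 and 99.6 in ND IEL, 187, 7.91 and 40.1 in PA LP, against 9.85, 79.2 and 349 in ND LP. ND LP replicate 3, with the highest Gata3, was the only library in which all 8 genes were detected.

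Tbx21 (chromosome 11, 97098071 to 97115331, minus strand) was the least detected of the 9 factors. It was listed at 10.3, 0 and 8.42 FPKM in ND IEL and at 0, 0 and 24.8 in PA LP. All 3 libraries of PA IEL and all 3 of ND LP were at 0. Taking 3 reads in each library as the floor, PA IEL was at least 57.7-fold below the mean of ND IEL. By the same floor, ND LP was at least 78.5-fold below the mean of PA LP. These bounds cover counting error only, and ND IEL replicate 2 and PA LP replicates 1 and 2 were at 0 as well. Tbx21 thus ran opposite to Id2 by group, in IEL present only in ND and in LP present only in PA, but in LP this was 1 library of 3. The difference between the layers was 3.81 with a standard error of 1.63 (adjusted p = 1 from limma). It was 4.59 without replicate 2 of PA IEL and PA LP and ran from 2.25 to 4.93 with single libraries left out. With sample quality weights Tbx21 was called for IEL against LP in ND, at 3.16 (adjusted p = 0.0176 from limma), in a fit that called 793 genes. That fit weighted ND IEL replicates 1 and 3, which held Tbx21, by 3.87 and 4.21. ND IEL replicate 2, where Tbx21 was at 0, had a weight of 0.52. The absence in PA IEL included replicates 1 and 3, each with 7 other factors detected.

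Genes of ILC1s and NK cells matched the libraries with Tbx21 to varying degrees, with 5 to 12 of the 12 libraries alike over the 9 genes of the list. Klrk1, the least alike, was also detected in 7 libraries without Tbx21, and Gzmb in 3. Ifng, the gene of interferon-γ, was detected in the same 3 libraries and in no other, at 14.2 and 28.2 FPKM in ND IEL replicates 1 and 3 and 22.2 in PA LP replicate 3. Only 7 tested genes (0.056%) shared that set of libraries with Tbx21. Ncr1, Prf1 and Xcl1 were detected in these 3 libraries and in 1 more each, and these genes and Ifng are named after their values were seen. Of the 9 genes of the list, 9, 9 and 8 were detected in ND IEL replicates 1 and 3 and PA LP replicate 3, against 0 to 5 in each other library. Their summed FPKM was 749 and 1188 in ND IEL replicates 1 and 3 and 170 in PA LP replicate 3, against 0.143 to 84.0 in the others, with Gzmb as the most abundant gene. Gzmb was at 407 and 649 FPKM in these ND IEL libraries and at 5.45 in PA LP replicate 3. In ND, all 9 were higher in IEL than in LP, with a median log2 difference of 1.95, whereas in PA 3 were (median -0.83). PA exceeded ND for 2 of them in IEL (median -1.88) and for 5 in LP (median 0.38). Limma called 0. Eomes, a related T-box factor of NK cells also named after its values were seen, was listed at 0 in all 12 libraries.

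**Figure D3:**
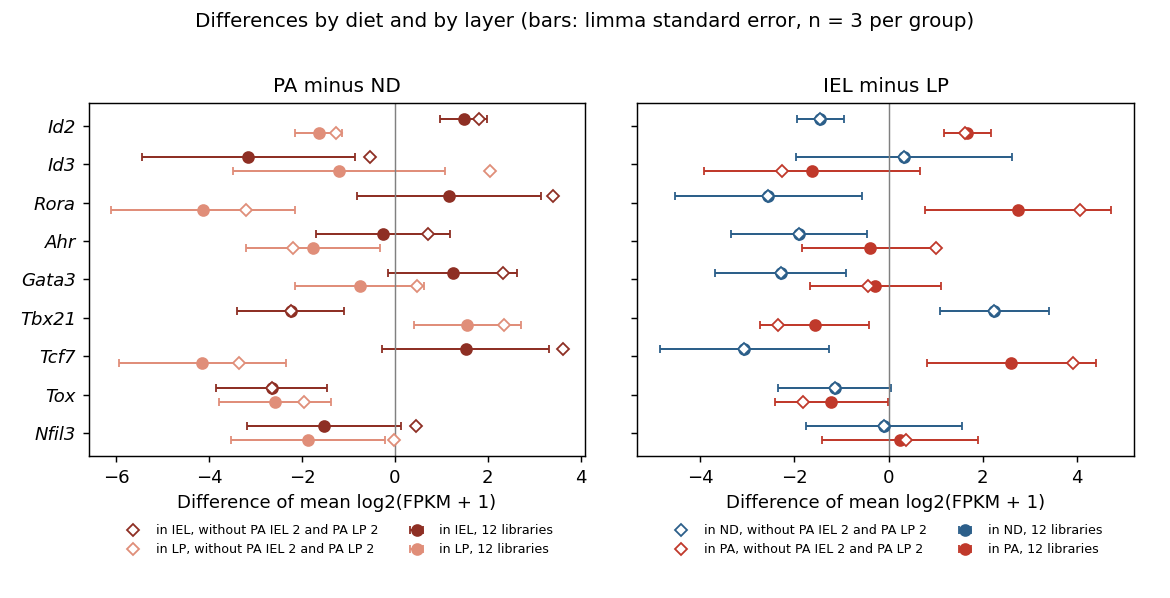
Differences of mean log2(FPKM + 1) for each factor, PA minus ND in each layer (left) and IEL minus LP in each diet (right), with filled points for all 12 libraries, bars for the standard error from limma (n = 3 per group) and open diamonds without replicate 2 of PA IEL and PA LP. For Id2 the bars are short and the layers lie on opposite sides of 0, at 1.48 and -1.64 for the diets, whereas Nfil3 moves to 0.46 and -0.01 without these libraries.

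Among the factors, levels tended to go together across libraries. Spearman's rho over the 12 libraries was positive for 33 of the 36 pairs of factors, with a median of 0.40 and a range from -0.37 to 0.80. Over the 10 libraries without replicate 2 of PA IEL and PA LP, 28 pairs were positive and the median was 0.22. The libraries share their depth and their number of detected genes, and these values are descriptions without a test. Over 12 libraries Rora and Tcf7 were the closest pair, at 0.80, and over 10 libraries, where they had 0.68, Id2 and Tcf7 were, at 0.80 after 0.77. The most opposed pair was Id2 and Tbx21 over 12 libraries (-0.37, and -0.50 over 10) and Id2 and Id3 over 10 libraries (-0.55, and -0.18 over 12).

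The genes most like each factor over the 12 libraries were Slfn10-ps, Micall1 and Dclk2 for Id2 (rho 0.89, 0.86 and 0.86) and Pqlc1 and Tspan7 for Id3 (0.96 and 0.94). For Rora they were Ptger2, Ttbk2 and Pdcd1 (0.97, 0.96 and 0.96) and for Tcf7 Itgb3, Dcun1d2 and Dkkl1 (0.99, 0.97 and 0.97). For Ahr they were Tmem194b, P2ry10 and Rad52 (0.96, 0.95 and 0.94), for Gata3 Tmem176a, Elovl5 and Tmem176b (0.91, 0.90 and 0.90) and for Tox Tmem198b, Bace1 and Ranbp2 (0.94, 0.93 and 0.92). Nfil3 was closest to Prelid2, Fbxl12 and Tspyl3 (0.94, 0.93 and 0.93) and Tbx21 to Zbtb3, Dusp14 and Dync2li1 (1, 0.99 and 0.99), each detected in 3 libraries. The highest of so many values are high by selection alone. Over the 10 libraries, Ttbk2, Tmem194b, Tmem176a, Zbtb3, Itgb3 and Tspyl3 ranked at the top for Rora, Ahr, Gata3, Tbx21, Tcf7 and Nfil3, and for Id2, Id3 and Tox none did.

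A list of 38 other ILC transcription factors, of which 32 were tested, served as a wider frame. In IEL, 12 were higher in PA and 20 lower (median -0.33), and in LP the counts were also 12 and 20 (median -0.23), so the 9 factors were lower in LP by their median than these. Other lists were as low in LP, with medians of -1.96 for ILC3, -2.095 for ILC2, -1.84 for T cell, -2.00 for epithelial and -4.45 for B and plasma cell genes. The lists of ILC1 and NK cell, stromal and myeloid genes had medians of 0.38, 0.03 and 0.65 there. IEL exceeded LP for 9 of the 32 in ND and 11 in PA. Limma called 0 of them in any comparison. Klf2, a zinc finger factor of lymphocyte trafficking, was below every LP library in each IEL library. It was 24.4, 57.1 and 34.6 FPKM in PA IEL, 24.6, 19.3 and 56.3 in ND IEL, 452, 64.2 and 975 in PA LP and, in ND LP, 309, 532 and 314. In IEL minus LP its log2 difference was -3.59 in ND, at an adjusted p of 0.218 from limma, and -3.03 in PA, at 0.253. For Bhlhe40 the log2 difference of PA from ND was 1.46 in IEL and -2.66 in LP (standard error 1.63 each), and the LP value turned to 0.34 without PA LP replicate 2.

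The remaining marker lists were examined for the same comparisons, and limma called 0 of their genes for diet. Of 4 tested genes of regulatory T cells, 0 were higher in PA in IEL and 1 in LP. Of 6 tested genes of B and plasma cells, 2 had higher means in IEL and 0 in LP, with the B cell factor Pax5 (named after its values were seen) at 0 in all libraries and Igj as the most abundant gene. Of 11 myeloid genes, 5 and 7 were higher, with Lyz2 the most abundant, and of 15 epithelial genes 1 and 0 were higher. Of 9 stromal genes, 6 and 5 were higher in PA, and of 7 tested ILC2 genes 4 and 1.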

How the data were processed

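RNA of ILC3s was measured in 12 libraries made with SMART-Seq v4. The authors mapped reads to mm10 with TopHat2 2.1.1, Bowtie2 2.2.8.0 and SAMtools 0.1.18 and quantified genes with Cufflinks 2.2.1. The deposited values are FPKM. The table of counts the authors deposited holds a scaled signal, counts divided by a size factor (9376529 to 11710874 per library). Reads were estimated from the multiples at which low values lie (90.9% to 99.0% within 0.05 of a whole multiple) and rounded to whole reads.

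Conditions came from the labels. A gene was tested where 3 or more libraries reached 1 FPKM (12502 genes), and these were fitted with limma 3.58.1 (R 4.3.3) on log2(FPKM + 1) with a variance trend, 4 group means and Benjamini-Hochberg adjustment at 0.05. Single factors were compared with a two-sided exact permutation test. Alternatives were a pseudocount of 0.1, no filter, upper-quartile scaling, scaling on leukocyte genes, voom, only the 2 groups compared, a replicate block and libraries left out. Quality weights and the fit without 3 libraries were chosen after seeing the data. The limma fit was also run on simulated data, the outcome of which is not reported here. Python 3.11.15, numpy 2.4.6, pandas 2.3.3, scipy 1.17.1 and matplotlib 3.10.9 were used.

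The 9 factors and the gene lists were chosen with earlier results of these data known. Named besides the factors were genes past the threshold, otherwise the 4 most abundant of a list (lists of E proteins, AHR genes and sort genes in full), and for each factor the 3 genes with the highest Spearman correlation. Values of 2 genes that this rule names are not reported here, and both stay in the fits and counts. Coordinates are those of GENCODE vM21.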

Additional observations from a re-analysis of the deposited data

Results flagged for a closer look

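Id2 drew attention because all libraries of the layers took opposite sides, both for diet and for layer. Every PA IEL library was above every ND IEL library and every PA LP library below every ND LP library, and the difference between the layers was -3.12 (standard error 0.72, adjusted p = 1 from limma, tested and not called). Seen by layer, IEL was wholly below LP in ND and wholly above it in PA, which is the same difference of -3.12. The adjusted p ranged from 0.436 to 1 over the alternatives, and leaving out single libraries gave values from -3.46 to -2.74. It was -2.57 after scaling on genes common to leukocytes. With that scaling and with upper-quartile scaling, PA IEL overlapped with ND IEL and with PA LP, while PA LP and ND IEL stayed below ND LP. Without scaling, 30 tested genes (0.240%) had opposite full orders for diet and 26 (0.208%) for layer, and of the other 8 factors 0 had.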

How the results depend on the processing

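Over the alternatives, 927 of 981 values of the 45 differences of the 9 factors kept their direction and their side of the threshold, and 30 of the 45 were never reversed, among them all 5 of Id2. Many of these values could not change direction, so the share is no measure of robustness. A difference stays the same when a library of a group outside it is left out. It also stays the same with only the 2 groups compared or with a replicate block. The fits with sample quality weights and without the 3 libraries with the fewest genes were chosen after seeing the data, and the cause of the changes below was not tested. For PA against ND in IEL, limma called 1 gene without those 3 libraries and 0 to 1 with single libraries left out. In LP it called 3 with voom, 3 with quality weights and 0 to 8 with single libraries left out (8 without PA LP replicate 3). For IEL against LP in ND the count was 1 with a pseudocount of 0.1, 0 without a filter, 1 with upper-quartile scaling, 0 with voom, 100 in only the 2 groups, 113 without replicate 2 of PA IEL and PA LP, 793 with quality weights (2 of the 9 factors, Id2 and Tbx21), 74 without the 3 libraries and 0 to 65 with single libraries left out. In PA it was 3 without a filter, 9 with upper-quartile scaling, 10 with leukocyte scaling, 6 in only the 2 groups, 314 without replicate 2 of PA IEL and PA LP, 134 with quality weights, 355 without the 3 libraries and 1 to 289 with single libraries left out (the highest, in both diets, without PA LP replicate 2). By their labels, libraries of different groups share only a replicate number, and whether same-numbered libraries share mice is not stated. With this number as a replicate block the counts were 3 for diet in LP, 1 for the diet effect in LP minus IEL, 0 for layer in ND and 5 in PA. Without replicate 2 of PA IEL and PA LP, the reversed values were 2.05 for Id3 and 0.48 for Gata3 (diet in LP), 0.72 for Ahr and 0.46 for Nfil3 (diet in IEL) and 1.02 for Ahr (layer in PA). Without the 3 libraries they were 2.05 for Id3, 0.48 for Gata3, 1.02 for Ahr (layer in PA) and for Nfil3 0.0751 (diet effect in LP minus IEL) and 0.44 (layer in ND). With quality weights they were 0.27 (diet in LP) and -0.43 (layer in ND) for Id3, 0.87 for Ahr (layer in PA) and 0.10 for Nfil3 (layer in ND). Nfil3 was also reversed with leukocyte scaling, at 0.14 for the diet effect in LP minus IEL and 0.24 for layer in ND, and with voom, at 0.0169 and, for layer in PA, -0.22. With single libraries left out, differences with a reversal ran for Id3 from -2.98 to 2.05 (diet in LP), -0.66 to 5.21 (LP minus IEL), -1.14 to 1.16 (layer in ND) and -4.88 to 0.99 (layer in PA), for Rora from -0.54 to 3.41 (diet in IEL), for Ahr from -1.36 to 0.72 (diet in IEL) and -1.57 to 0.58 (layer in PA), and for Gata3 from -1.41 to 0.48 (diet in LP) and -1.52 to 0.80 (layer in PA). Tox ran from -1.18 to 0.86 (LP minus IEL) and -1.84 to 0.0358 (layer in PA). Nfil3 ran from -2.75 to 0.46 (diet in IEL), -2.33 to 1.52 (LP minus IEL), -0.42 to 0.52 (layer in ND) and -1.62 to 2.23 (layer in PA). Tbx21 was at 0 for diet in LP and for layer in PA without PA LP replicate 3. Depth limits values under 3 reads, which have no order.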
